A study of Rattus norvegicus with 6 samples.

Results

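The RFX factors and cilium genes described here are 37 of the 17315 gene rows measured in adult rat hippocampal neural stem cells (NSCs). They were chosen by symbol: every gene whose name starts with Rfx, Ift, Bbs, Dnah or Tctn followed by a digit, together with *Foxj1*, *Kif3a*, *Kif3b*, *Kif17*, *Arl13b*, *Saxo2*, *Cep290*, *Gli1*, *Gli2* and *Gli3*. *Kif17* has no row, so 9 of those 10 further symbols were found. The set was selected on the level of *Rfx2*, which was higher after *Derl1* knockdown than in the control. *Rfx2* and every difference between the groups are therefore given as descriptions.

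The cells are a line cloned from the hippocampus of adult F344 (Fisher) rats. All samples were reverse transfected with Stealth RNAi siRNA and cultured with BMP4, a growth factor that brings these cells into quiescence, for 2 days before RNA was collected. The 3 siControl samples received a control duplex, and the 3 siDerl1 samples a duplex against *Derl1*, the gene of Derlin-1, a membrane protein of the endoplasmic reticulum that takes part in the degradation of misfolded proteins. Each group rests on 1 cell line and 1 duplex. Samples of the same number in the 2 groups are read here as a pair, although no shared batch is stated. The check given under the processing did not clearly separate numbers 2 and 3. Nothing states that the samples came from separate cultures, so the errors given measure the spread between these samples, which may be technical.

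A cilium is built on a basal body by intraflagellar transport, in which kinesin-2 carries trains of IFT-B and IFT-A proteins outward and dynein-2 brings them back. The transition zone at its base and the BBSome, a coat-like complex of Bardet-Biedl syndrome proteins, control which proteins enter and leave. RFX proteins are transcription factors that bind the X-box found before many cilium genes, and FOXJ1 is the factor that drives the genes of motile cilia. The primary cilium is also where vertebrate cells process GLI proteins, the transcription factors of the Hedgehog pathway, and neural stem cells of the adult hippocampus bear a primary cilium.

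Promoter sequences were examined first, because no sequence entered the choice of the set. The X-box is known before many cilium genes, so a higher share in a set chosen by their names is no new result. RefSeq promoters of the rat assembly GRCr8, running from 250 bases before to 50 bases after each start, were matched by symbol for 29 of the 37 genes, which have 30 promoters among them. The motif searched was the X-box written as GTNNCC, 0 to 3 bases, and GGNNAC, which reads the same on both strands. It occurred in 4 of the 30 promoters (13.3%), against 4.49% of the 8354 promoters of tested genes and 3.85% of all 33469 promoters. The 4 windows below carry these matches, 30 bases each in the direction of transcription, with the X-box in capitals.

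*Rfx2*, chr9:1758116-1758145, minus strand: tagagactGTAGCCGTGGAGACtgttactt

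*Tctn1*, chr12:39970602-39970631, plus strand: gctgtgactGTTGCCCGGCAACagacaggc

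*Ift22*, chr12:25405496-25405525, minus strand: tgttcccgGTCGCCGTGGAAACcgatcagc

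*Saxo2*, chr1:146047803-146047832, minus strand: caccgtcttGTCGCCGGCGACcctagcaag

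The matches in *Rfx2* and *Tctn1* begin after the start site, at base 9 and base 17, that in *Ift22* at base -7, and that in *Saxo2* at base -187. *Saxo2* has no base between the arms, and 3 of the 30 promoters remained (10.0%, against 3.82% of the promoters of tested genes) when 1 to 3 bases were required. With few matches these shares are a description of the sequences only.

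A single RFX arm, GTTGCC on one strand or GGCAAC on the other, was more frequent. It was present in 13 of the 30 promoters (43.3%), against 12.8% of the promoters of tested genes and 12.2% of all promoters. The 13 were those of *Rfx1*, *Rfx2*, *Rfx3*, *Kif3a*, *Ift20*, *Ift27*, *Ift81*, *Ift88*, *Bbs1*, *Bbs2*, *Bbs5*, *Tctn1* and *Tctn2*. The median GC content of the promoters was 59.5% in the set and 61.7% over the promoters of tested genes, with 51.7% over all promoters. In *Tctn1* the X-box is made of both arms, and its single-arm matches overlap it. The windows of 3 RFX genes, of *Ift81*, which carries both orientations 1 base apart, and of *Bbs2* are given as examples, with each arm in capitals.

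*Rfx1*, chr19:40996820-40996849, minus strand: tgggtagcaacaGTTGCCccggtgagggaa

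*Rfx2*, chr9:1758270-1758299, minus strand: agcctggtaaccGTTGCCgggcgcaacgcc

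*Rfx3*, chr1:235122523-235122552, minus strand: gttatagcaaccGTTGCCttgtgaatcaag

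*Ift81*, chr12:39618606-39618635, plus strand: tgcatGGCAACcGTTGCCaaggagcggtct

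*Bbs2*, chr19:10915578-10915607, plus strand: tatccgctgctaGGCAACcggcctgccaag

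A match to these letters is not a bound site. Among the 12 genes with the single arm that were tested for a difference, *Rfx2* left out, the median log2 fold change was 0.10, from -0.18 to 0.32, and 9 lay above 0. Among the 14 tested genes with a promoter but no arm it was 0.01, from -0.21 to 0.27, and 8 lay above 0. The ranges overlapped. The set was selected through *Rfx2* in this same contrast, and no share of all tested genes above 0 is given. Nothing is therefore read from these medians and counts, and a response of genes with the arm was not tested.

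Values are TPM, shares of all transcripts scaled to 1000000 per sample, which are corrected for transcript length and can be compared between genes. Of the 37 genes, 33 had a mean of at least 1 TPM over the 6 samples and were tested, among 10331 genes in all, and *Dnah1*, *Gli1*, *Rfx6* and *Saxo2* fell below. The read depth behind each value is unknown, because TPM keep no read numbers. *Derl1* was measured at 121.59, 131.92 and 127.64 TPM in siControl and at 44.86, 70.81 and 73.98 TPM in siDerl1, a log2 fold change of -1.03 ± 0.18 (SE) with groups that did not overlap. Its limma adjusted p was 0.497, and 0.00884 with the sample number as a block. All 10 neural stem cell markers were present, and summed to 4183 to 6099 TPM in siControl and 4622 to 6072 TPM in siDerl1. Of these *Nes* was lower in all siDerl1 samples (113 to 137 and 99.4 to 111 TPM), *Slc1a3* was lower in each pair, and *Sox2*, *Vim*, *Gfap* and *Pax6* were higher in each pair, the groups of these 5 overlapping. Neuronal genes, 7 of 8 of them at 1 TPM or more in a sample, summed to 164 to 185 TPM in siControl and 151 to 182 TPM in siDerl1. Among them *Dcx* (8.83 to 10.95 and 6.38 to 7.63 TPM) and *Syt1* (47.2 to 53.6 and 33.2 to 45.7 TPM) were lower in all siDerl1 samples, and *Tubb3* (58.8 to 74.9 and 76.3 to 83.2 TPM) was higher. Choroid plexus genes summed to 12.9 to 20.0 TPM in siControl and 10.2 to 16.8 TPM in siDerl1, with *Otx2* at 0. Among them *Clic6* was lower in all siDerl1 samples (0.66 to 1.41 and 0.44 to 0.63 TPM). *Aqp1*, which made up most of the sum, was lower in each pair with overlapping groups (11.1 to 18.4 and 9.57 to 15.1 TPM), and *Ttr* changed direction between pairs. Oligodendrocyte genes summed to 1060 to 1192 TPM in siControl and 1078 to 1345 TPM in siDerl1, with *Mbp* and *Cnp* higher in siDerl1 in each pair and *Mog* listed at 0, and microglial genes summed to at most 5.46 TPM with *Cx3cr1* at 0. Of 10 markers of multiciliated ependyma, 6 had rows, 3 reached 1 TPM in a sample and *Tmem212* was listed at 0. Their sum was 7.15 to 11.2 TPM in siControl and 9.73 to 12.1 TPM in siDerl1. Endothelial and mural markers summed to 0.90 to 0.98 TPM in siControl and 1.59 to 2.01 TPM in siDerl1, with *Cldn5*, *Cdh5* and *Rgs5* at 0; the gap was that of *Pdgfrb*, at 0.26 to 0.47 and 0.97 to 1.44 TPM. The part of these other cell types in the results was not tested.

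Most of the genes of primary cilia were at middle levels in these cells, and the 2 axonemal genes were close to 0. *Ift27* was the highest, with a mean of 87.4 TPM, which is at the 82.8th percentile of the 12822 rows above 0. *Rfx2* stood at the 28.7th percentile and *Foxj1* at the 26.9th. In bulk samples, fewer cells with a cilium and less RNA per cell cannot be told apart.

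**Figure D1:**
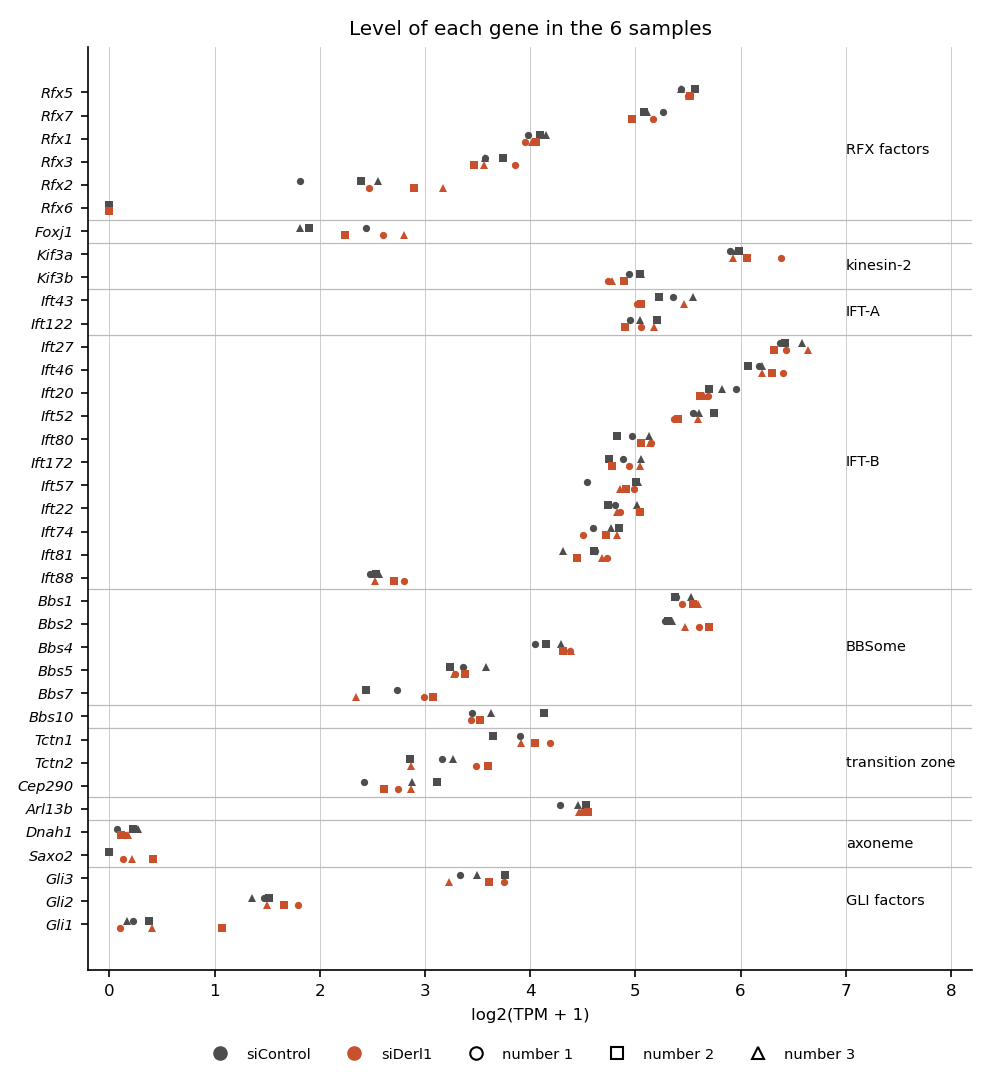
Level of each of the 37 genes in the 6 samples on the log2(TPM + 1) scale, grouped by role. Grey points are siControl, orange points siDerl1, and the symbol gives the sample number; the genes span from *Rfx6* and *Saxo2* near 0 to *Ift27* at a mean of 87.4 TPM, and for most genes both colours overlap.

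The RFX factors kept 1 order of level in all 6 samples, with no overlap between the ranges of neighbours. *Rfx5*, known as a regulator of MHC class II genes, had the highest mean (44.1 TPM), followed by *Rfx7* (33.2 TPM), *Rfx1* (15.5 TPM), *Rfx3* (11.4 TPM) and *Rfx2* (5.10 TPM). *Rfx6*, a factor of pancreatic islet cells, was listed at 0 in every sample. The 6 genes summed to 109 ± 2.31 TPM (SD, n = 3) in siControl and 109 ± 2.15 TPM (SD, n = 3) in siDerl1, so that *Rfx2* was a small share of the RFX transcripts in either group.

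*Rfx2*, a factor of ciliogenesis, measured 2.52, 4.25 and 4.85 TPM in siControl samples 1, 2 and 3. It measured 4.53, 6.45 and 8.02 TPM in siDerl1 samples 1, 2 and 3. It was higher in siDerl1 in each of the 3 pairs, yet the groups overlapped, since siDerl1 sample 1 lay below siControl sample 3. On the log2(TPM + 1) scale, which understates changes of low genes, the difference was 0.59 ± 0.26 (SE), and the SE was 0.16 with the sample number as a block. This is the difference on which the set was chosen, and no test is given for it. It was 0.71 with a pseudocount of 0.1 in place of 1. With 1 sample left out it ranged from 0.38 without siControl sample 1 to 0.78 without siDerl1 sample 1, with 0.43 without siDerl1 sample 3 and 0.74 without siControl sample 3. It was 0.56 without both samples numbered 1.

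The other RFX factors showed no comparable difference. *Rfx1* measured 14.72, 16.11 and 16.73 TPM in siControl and 14.47, 15.60 and 15.18 TPM in siDerl1, a log2 fold change of -0.07 ± 0.10 (SE). *Rfx3*, which with *Rfx2* acts on cilium genes in several vertebrate tissues, measured 10.88, 12.37 and 10.85 TPM in siControl and 13.44, 10.05 and 10.82 TPM in siDerl1 (0.00 ± 0.14). *Rfx3* thus took its highest and its lowest value in siDerl1. *Rfx5* measured 42.09, 46.24 and 42.34 TPM in siControl and 44.22, 44.80 and 44.67 TPM in siDerl1 (0.03 ± 0.07). *Rfx7* measured 37.34, 32.87 and 33.44 TPM in siControl and 34.85, 30.35 and 30.25 TPM in siDerl1 (-0.12 ± 0.10). *Rfx7* was lower in siDerl1 in each pair by less than the gap between sample 1 and the other samples of its group.

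*Foxj1* measured 4.43, 2.73 and 2.50 TPM in siControl and 5.06, 3.73 and 5.95 TPM in siDerl1. The groups overlapped, and siDerl1 was the higher in each pair, by 0.16, 0.34 and 0.99 on the log2(TPM + 1) scale. The fitted log2 fold change was 0.50 ± 0.24 (SE), the largest after *Rfx2*, with most of it in pair 3. The genes of motile axonemes in the set were at the floor. *Dnah1*, a dynein heavy chain of the inner arm, measured 0.05, 0.17 and 0.21 TPM in siControl and 0.11, 0.08 and 0.13 TPM in siDerl1. *Saxo2*, a microtubule-associated protein of the axoneme, was at 0 in the 3 siControl samples and at 0.09, 0.33 and 0.16 TPM in siDerl1.

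**Figure D2:**
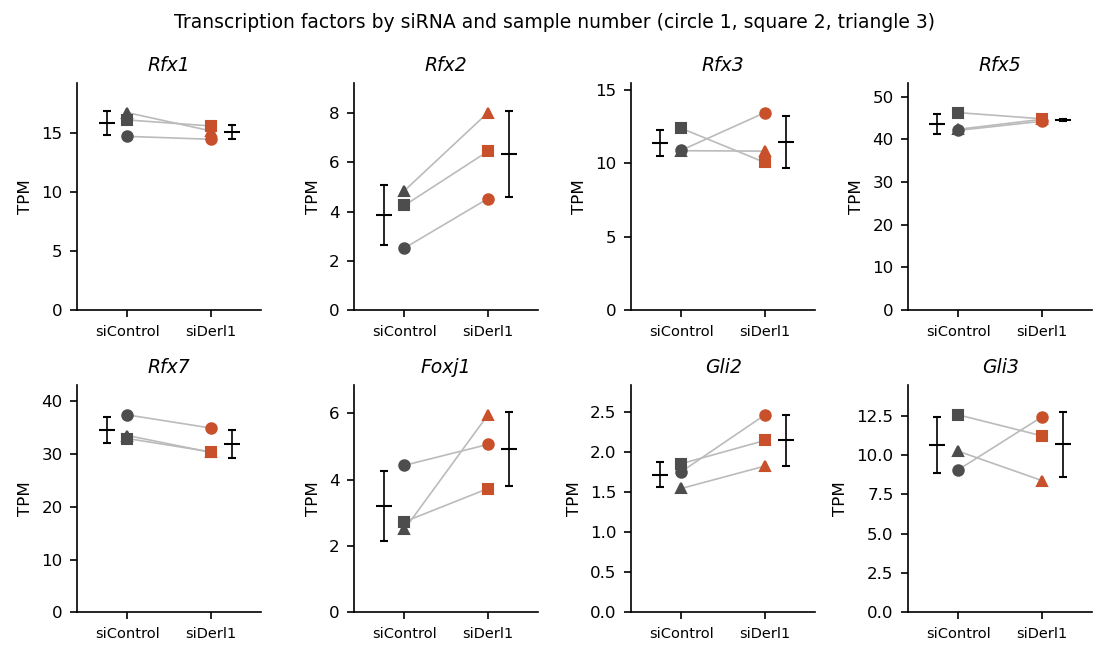
TPM of 8 transcription factor genes by siRNA, with grey lines joining samples of the same number and bars giving the mean ± SD (n = 3) of each group. *Rfx2*, *Foxj1* and *Gli2* lie higher in siDerl1 in every pair, *Rfx1* and *Rfx7* lie lower in every pair, and *Rfx3*, *Rfx5* and *Gli3* differ in direction between pairs.

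The kinesin-2 motor genes had fitted differences of opposite sign. *Kif3b* measured 29.70, 31.99 and 32.21 TPM in siControl and 25.65, 28.65 and 26.45 TPM in siDerl1, a log2 fold change of -0.21 ± 0.09 (SE). All siDerl1 values of *Kif3b* lay below all siControl values. *Kif3a* measured 58.70, 62.49 and 61.14 TPM in siControl and 82.70, 65.56 and 60.04 TPM in siDerl1 (0.18 ± 0.12). *Kif3a* was highest in siDerl1 sample 1 and lowest in siControl sample 1, and its groups overlapped. The ratio of *Kif3a* to *Kif3b* within each sample, a measure chosen after the values were seen, was 1.98, 1.95 and 1.90 in siControl and 3.22, 2.29 and 2.27 in siDerl1. The groups did not overlap in this ratio, which is a description only, since no background share is given for such ratios.

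Of the genes named Ift, 2 of IFT-A and 11 of IFT-B had rows and were tested. IFT subunits with other names are not in the set and were read with the partners below. *Ift27* and *Ift46* formed the top of the family with ranges that overlapped, *Ift88* was alone at the bottom (5.09 TPM), and the 10 genes between, from *Ift20* (52.6 TPM) to *Ift81* (22.8 TPM), formed a chain of overlapping neighbours. The 11 IFT-B genes of the set summed to 430 ± 17.3 TPM (SD, n = 3) in siControl and 433 ± 14.8 TPM (SD, n = 3) in siDerl1. Their median log2 fold change was 0.05, with 8 of 11 above 0 and a range from -0.18 to 0.15. The 2 IFT-A genes of the set summed to 73.3 ± 4.02 TPM in siControl and 67.7 ± 9.16 TPM in siDerl1. *Wdr19* and *Ttc21b*, IFT-A genes outside the set, had log2 fold changes of 0.27 ± 0.13 and 0.11 ± 0.17 (SE).

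*Ift27*, a small GTPase of the IFT-B train, measured 82.09, 84.99 and 94.82 TPM in siControl and 85.20, 78.86 and 98.52 TPM in siDerl1 (log2 fold change 0.00 ± 0.10, SE). *Ift46* measured 71.12, 66.18 and 72.71 TPM in siControl and 83.54, 77.61 and 72.46 TPM in siDerl1 (0.15 ± 0.08). *Ift27* was highest in sample 3 of both groups, and *Ift46* was higher in siDerl1 in pairs 1 and 2 only. The IFT-A subunit *Ift43* measured 39.94, 36.34 and 45.76 TPM in siControl and 31.35, 32.27 and 42.99 TPM in siDerl1 (-0.20 ± 0.14). *Ift52* measured 45.84, 52.87 and 47.69 TPM in siControl and 40.17, 41.29 and 47.44 TPM in siDerl1 (-0.18 ± 0.10). Both were lower in siDerl1 in each pair, with pair 3 the smallest for both, and overlapped between the groups. *Ift20*, which is also found at the Golgi and is named because its groups did not overlap, measured 61.18, 51.00 and 55.79 TPM in siControl and 50.48, 48.00 and 49.20 TPM in siDerl1 (-0.18 ± 0.09).

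*Ift172*, the largest IFT-B protein, measured 28.42, 25.82 and 32.24 TPM in siControl and 29.73, 26.39 and 31.92 TPM in siDerl1 (0.03 ± 0.12). *Ift74*, a partner of *Ift81* in binding tubulin, measured 23.19, 27.72 and 26.29 TPM in siControl and 21.67, 25.42 and 27.28 TPM in siDerl1 (-0.05 ± 0.12). *Ift172* was lowest in sample 2 of both groups, and *Ift74* in sample 1 of both groups. The remaining IFT genes of the set, *Ift22*, *Ift57*, *Ift80*, *Ift81*, *Ift88* and *Ift122*, had log2 fold changes from -0.02 to 0.15, and each overlapped between the groups.

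The summed level of the 5 BBSome subunits in the set did not overlap between siControl and siDerl1. Of single genes tested, 5.09% were higher in siDerl1 without overlap, and no such share is given for sums. The 5 subunits *Bbs1*, *Bbs2*, *Bbs4*, *Bbs5* and *Bbs7* summed to 109.21, 108.82 and 119.01 TPM in siControl and to 125.58, 132.15 and 123.47 TPM in siDerl1. On the log2(TPM + 1) scale the gaps of these sums within pairs were 0.20, 0.28 and 0.05. *Ttc8*, a subunit outside the set and the sum, overlapped between the groups. It measured 11.52, 9.06 and 11.94 TPM in siControl and 13.17, 9.01 and 10.49 TPM in siDerl1. *Bbs2* measured 37.90, 38.72 and 39.82 TPM in siControl and 47.73, 50.82 and 43.38 TPM in siDerl1, a log2 fold change of 0.28 ± 0.08 (SE). *Bbs4* measured 15.47, 16.71 and 18.64 TPM in siControl and 19.75, 18.85 and 19.98 TPM in siDerl1 (0.20 ± 0.11). For both genes all siDerl1 samples lay above all siControl samples. *Bbs1* measured 40.95, 40.56 and 45.16 TPM in siControl and 42.41, 45.63 and 47.31 TPM in siDerl1 (0.09 ± 0.08).

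*Bbs7* measured 5.64, 4.42 and 4.42 TPM in siControl and 6.96, 7.41 and 4.09 TPM in siDerl1 (0.27 ± 0.23), higher in pairs 1 and 2 and lower in pair 3. *Bbs5* was between 8.41 and 10.97 TPM in siControl and between 8.71 and 9.44 TPM in siDerl1. *Bbs10*, a chaperonin-like protein needed to assemble the BBSome, had the lowest fitted difference of the set, -0.24 ± 0.19 (SE). It measured 9.87, 16.53 and 11.33 TPM in siControl and 9.83, 10.51 and 10.52 TPM in siDerl1, and the gap came almost wholly from siControl sample 2. In level, *Bbs1* (43.7 TPM) and *Bbs2* (43.1 TPM) did not differ beyond their spread, and *Bbs7* (5.49 TPM) was the lowest of the family.

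The 3 transition zone genes of the set, *Tctn1*, *Tctn2* and *Cep290*, summed to 26.3, 25.4 and 26.5 TPM in siControl and to 33.1, 31.8 and 26.6 TPM in siDerl1, so that sample 3 hardly differed. The 15 further transition zone genes that were tested lay at a median of 0.03 on the log2 scale, and 8 of them were above 0. Of the 3 genes, *Tctn1* had the largest difference. *Tctn1*, a tectonic protein, measured 14.00, 11.52 and 11.53 TPM in siControl and 17.25, 15.49 and 14.06 TPM in siDerl1, a log2 fold change of 0.32 ± 0.13 (SE) with groups that did not overlap. *Tctn2* measured 7.95, 6.23 and 8.63 TPM in siControl and 10.21, 11.15 and 6.28 TPM in siDerl1 (0.22 ± 0.23). *Cep290*, a large protein that links the axoneme to the membrane there, measured 4.35, 7.67 and 6.33 TPM in siControl and 5.68, 5.12 and 6.27 TPM in siDerl1 (-0.06 ± 0.21). Both of the latter changed direction between pairs. *Arl13b*, a GTPase of the ciliary membrane, measured 18.48, 22.16 and 20.94 TPM in siControl and 21.50, 22.39 and 21.13 TPM in siDerl1 (0.08 ± 0.10).

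The GLI factors were low, and *Gli3*, mainly a repressor, was the highest. *Gli3* measured 9.07, 12.55 and 10.24 TPM in siControl and 12.42, 11.22 and 8.38 TPM in siDerl1 (0.00 ± 0.18). *Gli2*, mainly an activator, measured 1.76, 1.86 and 1.55 TPM in siControl and 2.47, 2.15 and 1.83 TPM in siDerl1 (0.21 ± 0.20), higher in each pair. *Gli1*, a target and read-out of Hedgehog signalling, measured 0.17, 0.30 and 0.12 TPM in siControl and 0.07, 1.10 and 0.32 TPM in siDerl1. Its single value above 1 TPM was in siDerl1 sample 2. *Ptch1*, the Hedgehog receptor and itself a target, measured 43.37, 53.89 and 62.03 TPM in siControl and 35.02, 41.89 and 49.56 TPM in siDerl1 (-0.32 ± 0.17), lower in each pair. *Hhip*, a further target, stayed below 1 TPM and was higher in siDerl1 in each pair, at 0.32, 0.14 and 0.35 TPM in siControl and 0.76, 0.30 and 0.54 TPM in siDerl1. Of the ligands, *Shh* was listed at 0 in every sample, and *Dhh* measured 2.00, 3.30 and 2.78 TPM in siControl and 3.03, 2.88 and 1.21 TPM in siDerl1.

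**Figure D3:**
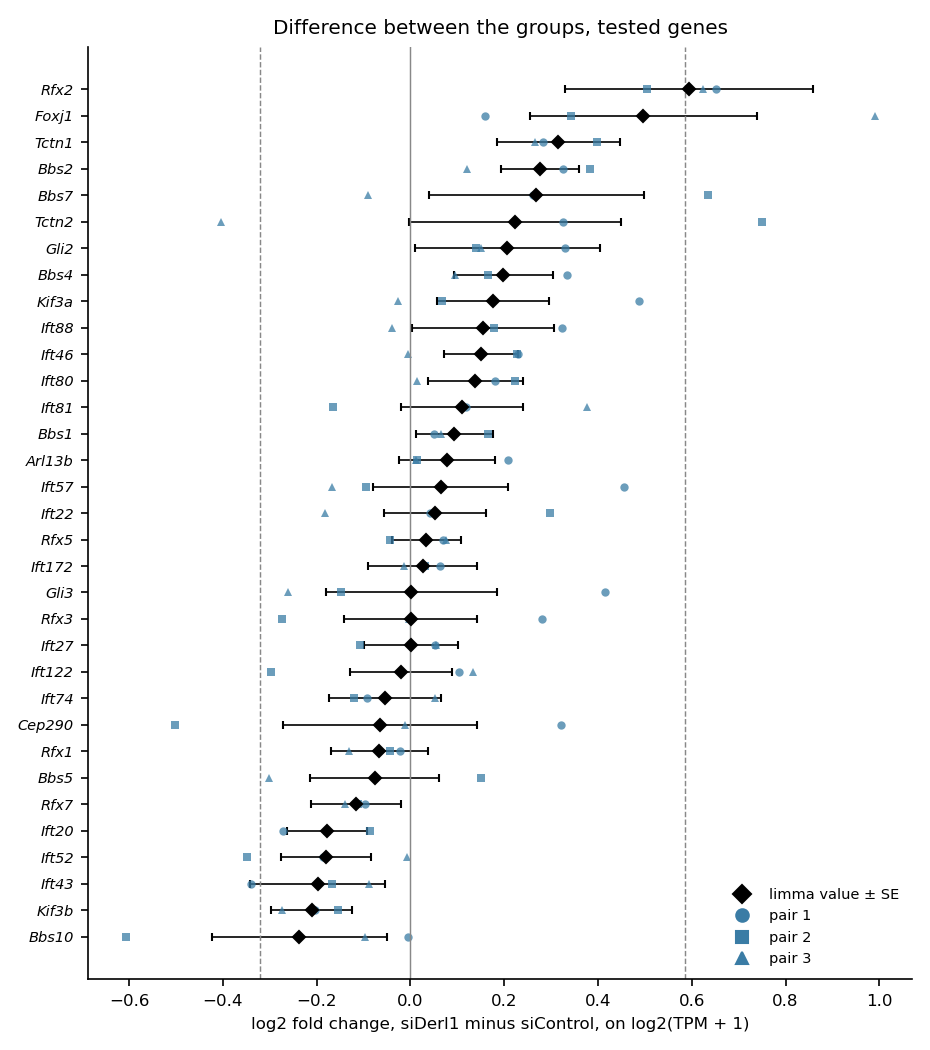
Log2 fold change (siDerl1 minus siControl, on log2(TPM + 1)) of the 33 tested genes, with black diamonds and bars for the limma value ± SE and blue symbols for the 3 pairs. Dashed lines mark fold changes of 0.8 and 1.5; *Rfx2* (0.59) and *Foxj1* (0.50) are at the top, and 24 of the 33 lie within 0.2 of 0.

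Over the whole set, 22 of the 33 tested genes had a fitted value above 0 and 11 below, and the median was 0.05 (0.04 without *Rfx2*), against -0.02 over all genes tested. The number of higher values was largest in pair 1. In pairs 1, 2 and 3 the number of genes higher in siDerl1 was 24, 17 and 14 of 33, with medians of 0.16, 0.01 and -0.01, against 0.01, -0.03 and -0.03 over all genes. In all 3 pairs, 9 of the 33 genes were higher (background 15.8%) and 7 lower (22.1%). The 3 genes whose siDerl1 samples all lay above the siControl samples were *Bbs2*, *Bbs4* and *Tctn1* (background 5.09%), and the 2 whose samples all lay below were *Ift20* and *Kif3b* (8.52%). As the set was selected in this contrast, nothing is read from these shares.

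By the limits used in the study, a fold change above 1.5 or below 0.8 with an unadjusted p under 0.05, limma called 0 of the 32 tested genes other than *Rfx2* higher (background 0.532%) and 0 lower (1.37%). With the sample number as a block it also called 0 higher (1.12%) and 0 lower (2.41%). None of the 32 passed an adjusted p of 0.05 in limma, where 0% of all genes did. At an unadjusted p under 0.05 there were 3 of the 32, namely *Bbs2*, *Kif3b* and *Tctn1* (background 6.70%). With the block 0 of the 32 passed the adjusted limit (background 0.552%) and 6 the unadjusted one (15.7%). The smallest adjusted p among them was 0.704 in limma, and 0.167 with the block. The SE of the log2 fold change, 0.07 to 0.26 with a median of 0.12, sets what could be seen with 3 samples a group. The count of higher genes was 1, *Foxj1*, without siControl sample 1, without siDerl1 sample 2 or without both samples numbered 1. Without siDerl1 sample 3, *Ift43* was called lower. No share over all genes is given for fits with samples left out, so nothing is read from these calls.

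The sample number, which did not enter the choice of the set, was tested by limma's moderated F test in a fit that also held the siRNA. None of the 33 genes passed an adjusted p of 0.05 (0 genes), although 10.6% of all genes did, and 3 passed an unadjusted p of 0.05, against 25.5%. The 3 were *Ift43* (adjusted p = 0.0848 by limma), *Rfx2* and *Ift27*. *Rfx2* was 0.50 higher in number 2 than in number 1 and 0.72 higher in number 3, on the log2(TPM + 1) scale, a spread as large as its difference between the groups. *Ift43* was 0.32 higher in number 3 than in number 1, with number 2 at -0.05. *Ift27* was 0.21 higher in number 3, with number 2 at -0.03. *Ift172* and *Ift74* came next by p, with values in number 3 of 0.14 and 0.25 above number 1. The count rose to 2 without siControl sample 1 (*Ift43* and *Kif3a*) and without siDerl1 sample 1 (*Ift43* and *Ift57*), fits for which no share over all genes is given.

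**Figure D4:**
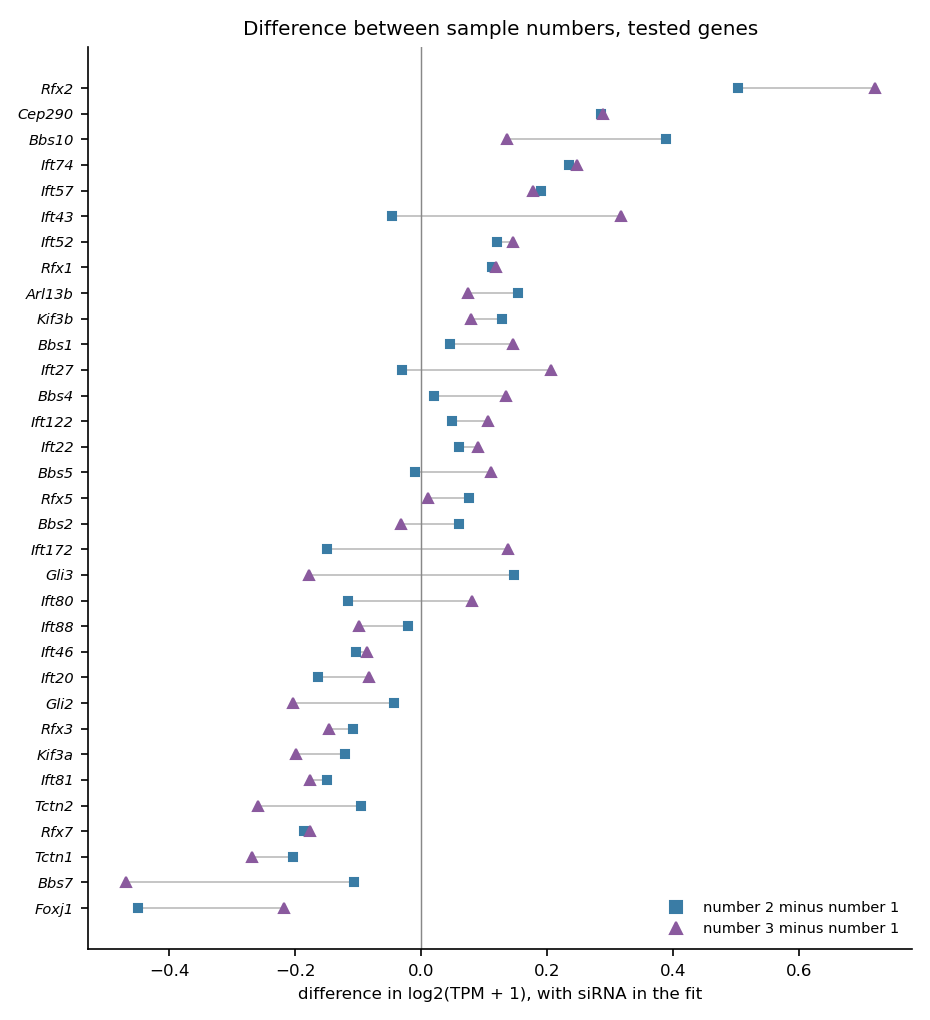
Differences between sample numbers for the 33 tested genes, in log2(TPM + 1), from the fit that also holds the siRNA. Blue squares give number 2 minus number 1 and purple triangles number 3 minus number 1; *Rfx2* stands farthest to the right at 0.50 and 0.72.

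Further genes of the cilium were read from 8 lists: the dynein-2 motor, other IFT and BBSome partners, the transition zone, basal body, cilium disassembly, ciliary membrane, Hedgehog pathway and motile axoneme. They hold 130 names, of which 104 had rows and 81 were tested. By the limits 0 were higher (background 0.532%) and 1 was lower (1.37%), the axonemal dynein gene *Dnai2*. *Dnai2* measured 2.54, 4.03 and 2.50 TPM in siControl and 0.91, 1.99 and 1.74 TPM in siDerl1, a log2 fold change of -0.66 ± 0.26 (SE) with groups that did not overlap. *Dnai1*, a partner of *Dnai2* in the outer dynein arm, was higher in all siDerl1 samples, at 0.34, 0.45 and 0.83 TPM in siControl and 1.21, 1.88 and 1.25 TPM in siDerl1, and its mean of 0.99 TPM kept it out of the test. The call of *Dnai2* was lost without siControl sample 2, siControl sample 3, siDerl1 sample 1, siDerl1 sample 3 or both samples numbered 1. With the block 2 of the 81 were lower, *Dnai2* and *Ptch1* (background 2.41%). The median of the 81 genes was 0.01, with 41 above 0. By limma 0 passed an adjusted p of 0.05, and 4 of the 81 passed an unadjusted one (*Tctex1d2*, *Pde6d*, *Dnai2* and *Dnal1*), against 6.70% of all genes.

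The motor and trafficking lists were well represented, with all 7 dynein-2 genes, 12 further IFT and BBSome partners and 15 transition zone genes tested. The highest gene of these lists was *Dynll1*, a dynein light chain shared with other motors, at 1201 to 1449 TPM. *Kifap3*, the adaptor of kinesin-2, was between 29.9 and 35.2 TPM, a range that overlapped that of *Kif3b*. Only 9 of the 35 names of the motile list were tested, with 7 above 0 and a median log2 fold change of 0.11. *Dnal1* was the highest of them in level, with means of 25.9 TPM in siControl and 33.3 TPM in siDerl1. *Dnaaf3*, 1 of the 7, passed the filter only through siDerl1, with means of 0.67 TPM in siControl and 1.49 TPM in siDerl1. The filter thus favoured its sign. By sample number, 3 of the 81 genes passed an adjusted p of 0.05 in limma (*B9d1*, *Ptch1* and *Dynlrb2*), against 10.6% of all genes. *Dynlrb2*, a dynein light chain of ciliated cells, was listed at 0 in sample 1 of both groups and at 1.81 to 2.52 TPM in the other 4.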

How the data were processed

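Strand-specific poly(A) libraries of 6 samples (3 siControl, 3 siDerl1) were sequenced on an Illumina HiSeq X. The authors deposited TPM, estimated with RSEM (1.3.2) after trimming with Trimmomatic (0.39) and alignment to rn6 by STAR (2.7.3a), rounded to 2 decimals and summing to 1000000 in each table. The depth is therefore unknown, no counting error can be given, and reads shared by paralogs may be split between them. *Ift52* and *Ift122* combine several RefSeq transcripts.

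Groups and sample numbers were taken from the labels. log2(TPM + 1) of the 10331 genes with a mean of at least 1 TPM was fitted with limma (3.58.1, R 4.3.3), with a trend in eBayes and Benjamini-Hochberg adjustment over all of them; fits were tested on simulated data. Deviations from the group means correlated across genes at 0.70, 0.35 and 0.51 between same-numbered samples, but also at 0.34 and 0.25 between numbers 2 and 3. The pairing comes from this check and the numbering, not from a stated batch. No samples were identical (0 pairs).

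The genes, lists and rules were chosen with earlier results of these data known. Genes are named with values where they are RFX factors or single symbols of the set, the 2 highest or 2 most different of a family, among the 5 with the smallest p for sample number, or past the limits. *Bbs4*, *Bbs10* and *Ift20* among others were singled out after their values were seen. Promoters come from RefSeq on GRCr8, a later build than rn6, and carry no measurement. As alternatives, the pseudocount was 0.1, the filter was dropped or raised to 5 TPM, the scaling was by median of ratios (factors 0.99 to 1.02), the trend was dropped, the block was added, and each sample was left out in turn. Leaving out both samples numbered 1 was chosen after seeing the data.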

Additional observations from a re-analysis of the deposited data

How the results depend on the processing

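The number of genes of the set past the limits, *Rfx2* left out, was 0 higher and 0 lower, also with the replicate block. It ranged from 0 to 1 higher (*Foxj1*) and from 0 to 1 lower (*Ift43*) when 1 sample was left out, and was 1 higher (*Foxj1*) without both samples numbered 1. Of the other cilium lists, 1 gene was higher without a filter on low values (*Dnai1*), and 0 to 1 with a sample left out. For those lower, 0 were past the limits at a mean of at least 5 TPM, where *Dnai2* is not tested, 2 with the replicate block (paired samples), and 0 to 2 with a sample left out. The number that differed by sample number ranged from 0 to 2 with a sample left out and was 1 (*Ift43*) without both samples numbered 1. Counts from fits with samples left out have no share over all genes beside them. The single arm alone occurred in 13 promoters, against 4 for the X-box. Except where a construction is named, the cause was not tested. The median log2 fold change of the set stayed above 0, from 0.01 to 0.09, and that of *Rfx2* ranged from 0.38 to 0.78 with a sample left out. Of 22 other named genes followed in this way, 6 changed sign under an alternative: *Cep290* (-0.26 to 0.09), *Gli3* (-0.21 to 0.15), *Rfx3* (-0.14 to 0.08), *Ift27*, *Ift74* and *Ift172*. The 22 do not include *Bbs4*, *Bbs10*, *Ift20*, *Wdr19*, *Ttc21b*, *Ptch1* and *Dnai2*, whose fold changes have no such range. Without both samples numbered 1 *Kif3a* was 0.02, and the sample left out moved *Kif3a* (0.05 to 0.27), *Bbs7* (0.13 to 0.50), *Tctn2* (0.08 to 0.45), *Ift43* (-0.34 to -0.11), *Rfx7* (-0.18 to -0.06), *Arl13b* (0.01 to 0.13) and *Rfx1*, *Rfx5*, *Bbs1*, *Gli2* and *Ift46* by over 1.5 times. Pseudocount, scaling and trend changed no count. With 3 samples a group and unknown depth, differences of low genes such as *Gli1*, *Saxo2* and *Dnah1* could not be resolved.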
